A study of Homo sapiens with 8 samples.

Results

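The comparison described here set MED12 E33Q knock-in HCT116 cells against wild-type HCT116 cells after both had been kept for 24 h in 5 ng/ml of IFN-γ (interferon-gamma), across all genes. It rests on 4 of the 8 libraries of the series, 2 from wild-type and 2 from knock-in cells, chosen by genotype and treatment label. HCT116 is an established human colorectal cancer cell line, and the knock-in derivative was made with CRISPR-Cas9 and carries the E33Q change in MED12. The other 4 libraries are untreated (0 h) cells of both genotypes, 2 each, and were used here to estimate the spread between replicates and to set the treated line difference beside the untreated one. Untreated cells are labelled 0 h and treated cells 24 h, so IFN-γ and the time in culture cannot be told apart between them. Both treated groups had the same agent, dose and time, so these are shared and do not differ between them. A single knock-in line is named, so the E33Q change and other differences between the lines cannot be told apart. The series' design text calls the 2 libraries of a group biological replicates. The labels say no more about their origin, so p-values measure the spread between these libraries.

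MED12 belongs to the kinase module of Mediator, the complex that links transcription factors to RNA polymerase II. The module joins a cyclin-dependent kinase (CDK8 or its paralogue CDK19) with cyclin C, MED12 and MED13, and MED12 is the subunit that activates the kinase through its N-terminal segment. IFN-γ binds a receptor that signals through Janus kinases to transcription factors that bind GAS elements, and induced factors such as IRF1 act at ISRE elements. CDK8 is known as a kinase that can act on transcription factors at promoters.

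The sequences that carry the comparison are the edited codon and the promoters of members described below. Codon 33 of MED12 (GAG, glutamate) is the last codon of exon 1 of the annotated transcript, at chrX:71118851-71118853 on the plus strand (GRCh38, GENCODE release 29). It is shown with 30 coding bases on either side, which span exons 1 and 2. This is reference sequence, since the labels do not give the bases of the knock-in allele, and the capitals mark the codon.
MED12 codon 33: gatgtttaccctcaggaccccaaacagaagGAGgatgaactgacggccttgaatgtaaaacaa

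Promoters are 250 bases upstream of the transcription start in RefSeq (GRCh38.p14), written 5′ to 3′ on the gene's strand, with capitals for the matches on either strand to the motif named for that gene. Matches to the other motifs are left in lower case. The motifs searched were the GAS core (TTCNNNGAA), the ISRE core (TTTC, then any 2 bases, then TTTC, with reverse complement half-sites GAAA), the TEAD core (GGAATG), the CCAAT box (CCAAT, reverse complement ATTGG) and the sterol regulatory element SRE-1, searched as 1 exact sequence of 10 bases. ICAM1 (chr19:10270870-10271119, plus strand) holds 1 GAS core. BST2 (chr19:17405631-17405880, minus strand) holds 2 overlapping ISRE cores, and SAMD9 (chr7:93117980-93118229, minus strand) holds 1, the former gene higher and the latter lower in the knock-in line. The promoters of ISG20 and IFITM1, both higher, also hold 1 ISRE core each and are not printed. In lower case, BST2 also holds a GAS core and a CCAAT box, and SAMD9 a CCAAT box. ANKRD1 (chr10:90921088-90921337, minus strand) holds 2 TEAD cores and MVK (chr12:109573544-109573793, plus strand) holds 5 CCAAT boxes.
ICAM1: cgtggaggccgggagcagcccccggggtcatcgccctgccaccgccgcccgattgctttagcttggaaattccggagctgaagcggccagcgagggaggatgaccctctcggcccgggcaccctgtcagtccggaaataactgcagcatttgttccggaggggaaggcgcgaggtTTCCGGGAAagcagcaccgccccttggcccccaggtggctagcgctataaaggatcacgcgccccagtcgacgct
BST2: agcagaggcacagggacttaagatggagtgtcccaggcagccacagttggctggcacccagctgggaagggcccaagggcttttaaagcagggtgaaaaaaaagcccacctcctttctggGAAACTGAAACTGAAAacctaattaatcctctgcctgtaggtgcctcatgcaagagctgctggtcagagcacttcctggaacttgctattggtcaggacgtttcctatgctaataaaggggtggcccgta
SAMD9: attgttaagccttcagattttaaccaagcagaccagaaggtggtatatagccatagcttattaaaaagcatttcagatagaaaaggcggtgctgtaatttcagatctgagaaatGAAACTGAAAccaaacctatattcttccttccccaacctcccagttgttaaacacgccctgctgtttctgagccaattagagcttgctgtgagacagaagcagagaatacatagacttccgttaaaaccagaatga
ANKRD1: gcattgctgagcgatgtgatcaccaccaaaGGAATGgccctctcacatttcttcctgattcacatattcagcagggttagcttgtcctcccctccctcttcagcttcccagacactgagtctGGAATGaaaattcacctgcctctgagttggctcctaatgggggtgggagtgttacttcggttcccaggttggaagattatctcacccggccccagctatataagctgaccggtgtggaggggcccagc
MVK: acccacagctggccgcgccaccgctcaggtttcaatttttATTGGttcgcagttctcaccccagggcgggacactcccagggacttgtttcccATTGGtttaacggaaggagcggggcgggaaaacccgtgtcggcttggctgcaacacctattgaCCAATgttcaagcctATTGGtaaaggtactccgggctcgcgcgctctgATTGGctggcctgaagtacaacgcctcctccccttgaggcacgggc

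Of all 27305 promoters in the table, 6.78% hold a GAS core, 3.07% an ISRE core, 11.9% a TEAD core and 33% a CCAAT box. For the 11049 matched promoters of tested genes the shares were 5.39, 2.39, 9.33 and 34.8%. Among the 196 matched promoters of genes higher in the knock-in line these shares were 6.12, 2.55, 12.2 and 34.2%. Among the 157 matched promoters of genes lower in the knock-in line they were 5.1, 4.46, 5.73 and 31.8%. Within curated lists, 20 of 33 matched promoters of type I interferon-stimulated genes held an ISRE core. A CCAAT box stood in 17 of 24 promoters of cholesterol and fatty acid synthesis genes, and a TEAD core in 8 of 20 promoters of YAP and TEAD targets. The SRE-1 was in 5 promoters of tested genes, 1 of them among the 24 of the cholesterol and fatty acid list, and in none of a called gene. A match to these letters is a description of the window and not a mapped binding site.

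The 4 treated libraries held 22177166 to 24086889 estimated counts, with 15556 to 15827 genes at 10 counts or more and 0.228 to 0.271% of counts from ERCC spike-in RNAs. Values per library are given below in CPM, which set a gene's counts against the library's total scaled by TMM (trimmed mean of M-values). MED12 itself stood at 34.3 and 28.3 CPM in the wild-type and 33.3 and 30.1 CPM in the knock-in libraries, which overlap. A point change leaves the RNA in place, so this level does not check the genotype. Of 14 epithelial colorectal markers, 12 were above 1 CPM in every treated library, while VIL1 and LGALS4 were near 0, and their summed level was 4155 and 4348 CPM in wild-type and 5456 and 5491 CPM in knock-in libraries. That sum was carried by the keratins KRT8 and KRT18, and the other 12 markers summed to 1271 and 1342 CPM in wild-type and 1172 and 1194 CPM in knock-in libraries. Plasma and B cell markers summed to 0.496 and 0.327 CPM in the wild-type and 0.769 and 247 CPM in the knock-in libraries. Treated knock-in library 2 thus stood apart, with 238 CPM from immunoglobulin and joining-chain genes, which were at 0 in both treated wild-type libraries and at 0.183 CPM in treated knock-in library 1. T cell and myeloid markers in library 2 summed to 8.18 CPM, against 2.82 to 3.35 CPM in the other 3 treated libraries, and endothelial and fibroblast markers lay between 6.65 and 9.18 CPM in all 4. The untreated wild-type libraries and untreated knock-in library 2 carried the same immunoglobulin signal, at 303 to 346 CPM.

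Under IFN-γ, 481 of 16519 tested genes (2.91%) differed between the lines, 269 higher (1.63%) and 212 lower (1.28%) in knock-in cells. Genes of TGF-β and BMP signalling and of the amino acid stress response were among those that were higher, with ANKRD1, SPARC, MUC13 and the glucose transporter SLC2A3. Genes of cholesterol synthesis, mucin-type glycosylation and epithelial junctions were among those that were lower, with GALNT14, PROM1 and HAS3. Of genes induced by IFN-γ, 1.66% were called, against 2.91% of all tested genes. In a fit of the treated libraries alone 17.8% of induced genes were called, against 15.2% of all genes tested there. ICAM1 was the called member of the curated IFN-γ list in the fit of all 8 libraries. A gene was called at an adjusted p under 0.05 (edgeR's quasi-likelihood test, Benjamini-Hochberg method over all tested genes). The called genes had a median absolute log2 difference of 1.16, and the smallest called difference was 1.43-fold. At 2-fold or more, 310 genes (1.88%) were called, 181 higher and 129 lower. The replicates of the groups did not overlap in any of the 481, against 57.6% of all tested genes. At an unadjusted p under 0.05 by the same edgeR test, 1331 of the 16519 tested genes were higher and 1229 lower. List counts at that threshold below are to be read beside these. Of the called genes 465 were protein coding, and 8 had no name in the annotation.

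**Figure D1:**
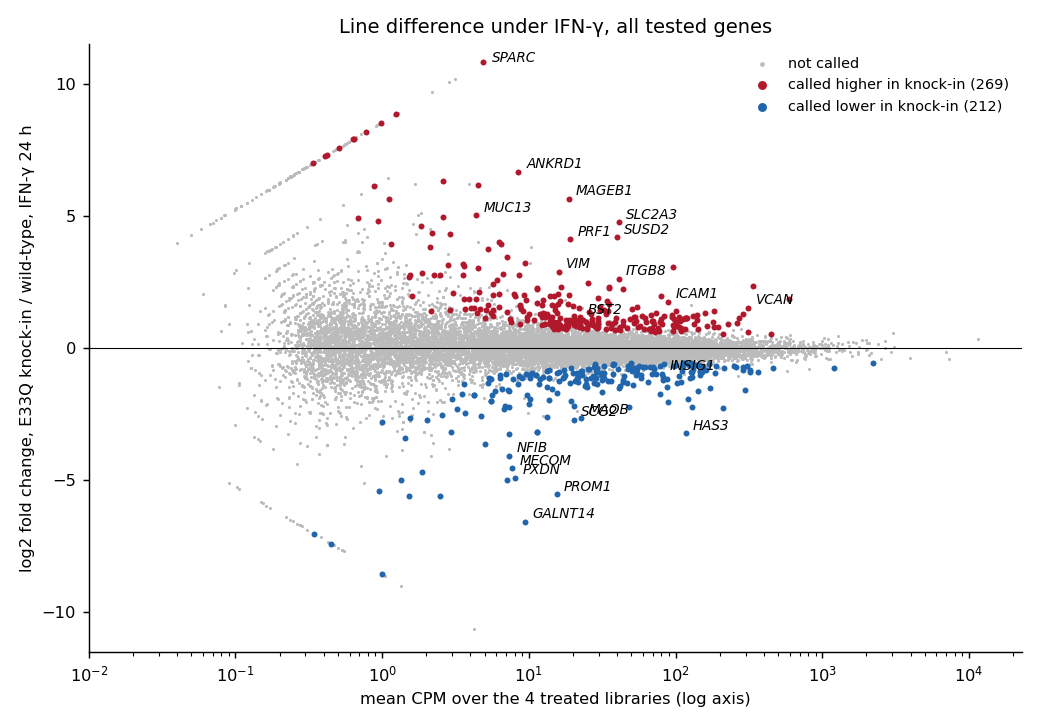
Log2 fold change of knock-in over wild-type cells under IFN-γ (vertical) against the mean CPM over the 4 treated libraries (horizontal, log axis), 1 point per tested gene. The 269 genes called higher are red and the 212 called lower are blue. The straight lines of points at low CPM are genes with 0 counts in a whole group, whose fitted fold change depends on the prior count.

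The number of called genes depended on which libraries set the spread. A fit of the 4 treated libraries alone called 2427 of 15930 genes (15.2%), 1216 higher (7.63%) and 1211 lower (7.6%), which included 480 of the 481. Leaving out either library of a treated group gave 147 to 189 genes, leaving out untreated wild-type library 1 or 2 gave 1015 and 1111, and leaving out the libraries with immunoglobulin RNA gave 954, of which 528 were higher. Scaling to the ERCC spike-ins gave 195. No named called gene changed direction in any alternative tried. That was largely given beforehand, since the replicates of called genes did not overlap and the same counts were used. Of the 84 named called genes, 39 were called in every alternative, among them SPARC, ANKRD1, SLC2A3, MAGEB1, MUC13, TGFB2, SMAD6, BMP4, DKK1, VCAN, ITGB8, ICAM1, CHAC1, GALNT14, GALNT3, PROM1, HAS3, CEMIP and MECOM. TM7SF2, MVK, INSIG1 and ELOVL6, the cholesterol and fatty acid genes among the 84, each lost their call in at least 1 alternative.

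Within the Mediator kinase module, 1 of 7 members was called (14.3%). MED13L, a paralogue of MED13 (chr12:115953872-116277719), was at 374 and 379 CPM in wild-type and 233 and 240.2 CPM in knock-in libraries. Its log2 difference was −0.67 ± 0.13 (SE, n = 2 per group, edgeR adjusted p = 0.0283), with both knock-in libraries below both wild-type libraries. The kinase CDK8 was at 45.9 and 45.6 CPM in wild-type and 33.7 and 36.9 CPM in knock-in libraries, and its paralogue CDK19 at 16.5 and 16.0 against 23.9 and 25.4 CPM. Neither pair of groups overlapped, but neither difference passed the test (CDK8 −0.37 ± 0.14, edgeR adjusted p = 0.248, and CDK19 0.60 ± 0.17, 0.117). The fit of the treated libraries alone called both, CDK8 lower (−0.36, edgeR adjusted p = 0.034) and CDK19 higher (0.61, 0.0146). Cyclin C (CCNC, −0.06 ± 0.15), MED13 (−0.15 ± 0.14), MED12L, the paralogue of MED12 (0.11 ± 0.22), and MED12 (0.02 ± 0.23) had edgeR adjusted p from 0.671 to 0.987. Of 26 subunits of the Mediator core, MED19 alone was called (3.85%, against 2.91% of all tested genes). It was at 13.0 and 14.3 CPM in wild-type and 22.2 and 22.4 CPM in knock-in libraries (0.71 ± 0.16, edgeR adjusted p = 0.046). MED19 was not called with ERCC scaling or with the replicate number as a block, and MED13L was not called with ERCC scaling.

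The share of interferon-induced genes called between the treated lines depended on the fit. Genes raised or lowered by IFN-γ are taken here from treated (24 h) against untreated (0 h) libraries, in the mean of both lines. That contrast does not separate IFN-γ from the 24 h. Of 1623 genes (9.83% of those tested) raised by 2-fold or more in it, 16 were higher and 11 lower in the knock-in line. That is 1.66%, against 2.91% of all tested genes, and the median log2 difference of the induced genes was −0.06, against −0.01 for all genes. Of 1918 genes (11.6%) lowered by 2-fold or more in the same contrast, 37 were higher and 20 lower (2.97%, median 0.04). The lowered set also holds VIM, which averaged 27.5 CPM in untreated and 3.84 CPM in treated wild-type cells, and 31.2 and 28.3 CPM in knock-in cells. The difference between these line responses did not pass the test (edgeR adjusted p = 0.688). Both untreated wild-type libraries carried the immunoglobulin RNA and neither treated one did. Untreated and treated knock-in cells had VIM at 21.95 and 18.3 CPM in library 1, and at 40.5 and 38.2 CPM in library 2, which carried that RNA. Its part in the VIM level was not tested. The largest log2 difference in the lowered set, 13.4, is also the largest in the plasma and B cell list, whose RNA differed between libraries as given above. In the fit of the treated libraries alone the counts were 117 higher and 172 lower of 1622 induced genes, 17.8% against 15.2% of all genes tested in that fit. Of 46 tested IFN-γ response genes, 1 was called higher and none lower (2.17%), with a median log2 difference of 0.18. At an unadjusted p under 0.05, 7 of them were higher and none lower, against 1331 higher and 1229 lower of all 16519 tested genes. The fit of the treated libraries alone called 10 of this list higher and 1 lower. Of 43 type I interferon-stimulated genes, 3 were called higher and 1 lower, with a median of 0.19, and 12 higher and 3 lower in the fit of the treated libraries alone. None of this list was called with ERCC scaling or when any 1 treated library was left out, while ICAM1 was called in each of these.

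ICAM1, the adhesion molecule that binds leukocyte integrins (chr19:10270835-10286615), was at 40.1 and 41.4 CPM in wild-type and 137 and 138 CPM in knock-in libraries under IFN-γ. The groups lay far apart compared with the spread within them, and the difference was 3.37-fold (log2 1.75 ± 0.13, SE, n = 2 per group, edgeR adjusted p = 0.000167). Its promoter holds the GAS core shown above in capitals. In untreated cells ICAM1 was 4.78 CPM in wild-type and 11.99 CPM in knock-in cells on average, a log2 difference of 1.33 (edgeR adjusted p = 0.00139). So it differed between the lines with and without IFN-γ, and the difference between those 2 contrasts did not pass the test (unadjusted p = 0.0555, edgeR adjusted p = 0.688).

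The called members of the type I list were 4 antiviral genes. ISG20, an exonuclease that degrades RNA, was at 4.43 and 4.16 CPM in wild-type and 13.5 and 12.7 CPM in knock-in libraries (log2 1.604 ± 0.25, edgeR adjusted p = 0.00812). BST2, which encodes tetherin and holds enveloped virions at the cell surface, was at 13.4 and 14.2 against 33.2 and 28.5 CPM (1.17 ± 0.25, edgeR adjusted p = 0.0403). IFITM1, which restricts viral entry, was at 19.8 and 16.8 against 32.3 and 36.1 CPM (0.90 ± 0.18, edgeR adjusted p = 0.0299). In these 3 genes both knock-in libraries were above both wild-type libraries. SAMD9, a restriction factor of poxviruses, went the other way, at 99.0 and 81.9 CPM in wild-type and 52.9 and 51.1 CPM in knock-in libraries (−0.80 ± 0.16, edgeR adjusted p = 0.0338). The promoters of all 4 genes hold an ISRE core, and 3 of these genes were higher and 1 lower.

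None of the upstream factors named here was called. IRF1 stood at 337 and 361 CPM in wild-type and 352 and 336 CPM in knock-in libraries, which overlap (log2 −0.02 ± 0.14, edgeR adjusted p = 0.973). NLRC5, which switches on MHC class I genes, was at 181 and 166 against 160 and 161 CPM (−0.11 ± 0.17, edgeR adjusted p = 0.832), and the MHC class II transactivator CIITA at 11.1 and 9.31 against 10.99 and 11.45 CPM (0.14 ± 0.35, 0.909). NLRC5 was lower in the knock-in line without IFN-γ (log2 −1.29, edgeR adjusted p = 0.0132).

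**Figure D2:**
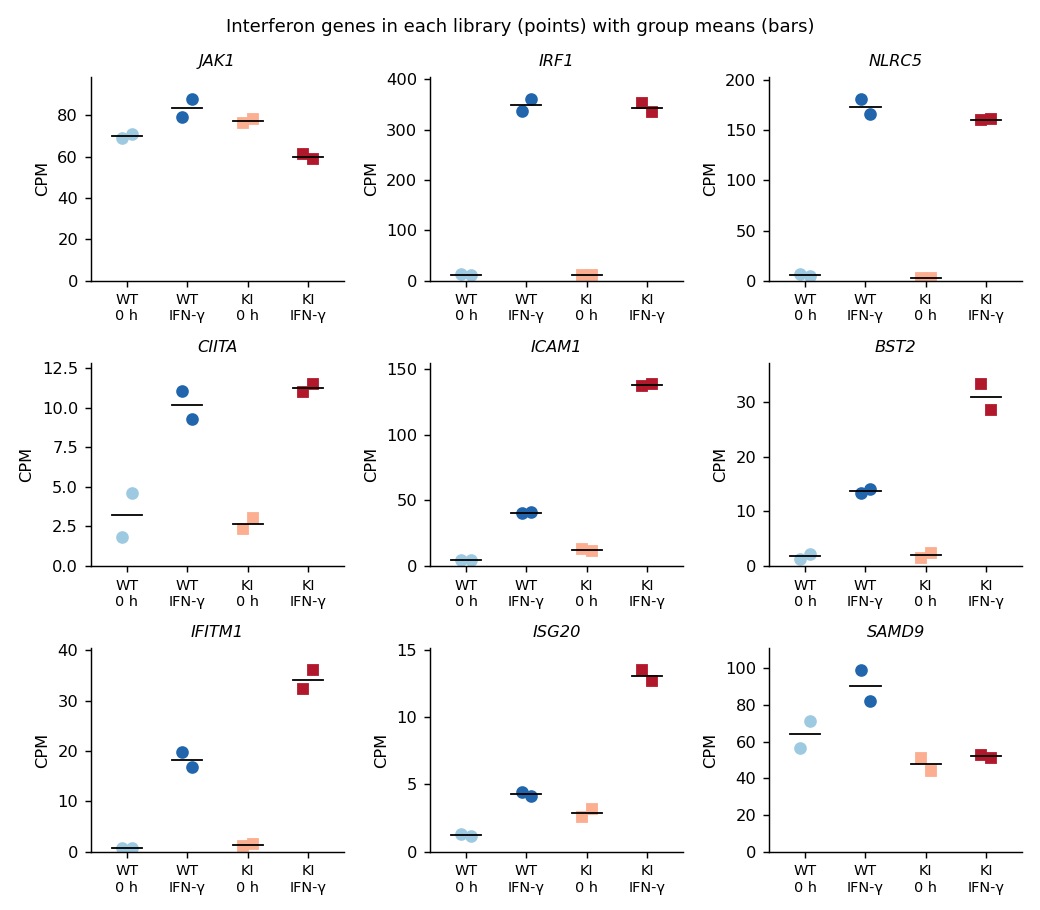
CPM of 9 interferon pathway genes (1 panel each, linear axis from 0) in the wild-type (WT) and knock-in (KI) libraries without (0 h) and with IFN-γ. Points are libraries and bars are group means. IRF1, NLRC5, CIITA and JAK1 were not called between the treated lines, while ICAM1, BST2, IFITM1 and ISG20 stand higher and SAMD9 lower in treated knock-in cells.

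In the list of IFN-γ receptors, JAK-STAT components and SOCS inhibitors, none of 25 genes was called by edgeR's quasi-likelihood test. At an unadjusted p under 0.05, 3 were higher and 4 lower, DESeq2 called 3 and limma-voom called 1. The fit of the treated libraries alone, where 15.2% of all genes were called, called 4 higher and 5 lower. With no filter edgeR called 2, and with the GC and length trend removed it called 5. The receptor chain IFNGR1 was at 24.5 and 28.5 CPM in wild-type and 14.9 and 17.4 CPM in knock-in libraries (−0.71 ± 0.18, edgeR adjusted p = 0.0801), and the kinase JAK1 at 79.2 and 88.0 against 61.3 and 58.7 CPM (−0.48 ± 0.12, 0.0801). Both were lower in both knock-in libraries and neither passed the threshold. None of 21 MHC class I and antigen processing genes was called by edgeR, DESeq2 or limma-voom, with 1 lower at an unadjusted p under 0.05 and a median of −0.11. None of 11 MHC class II pathway genes was called by these 3 tools either, with 3 higher at an unadjusted p under 0.05. The fit of the treated libraries alone called 1 class I and 2 class II genes higher. CD74, the invariant chain of that pathway, was at 1.602 and 2.37 CPM in wild-type and 4.98 and 31.7 CPM in knock-in libraries (3.21 ± 1.36, edgeR adjusted p = 0.3). Its high value was in knock-in library 2, which also carried the immunoglobulin RNA, and the part of that signal in the CD74 level was not tested. Among 19 NF-kB targets and chemokines 1 was higher and 1 lower (10.5% called, against 2.91% of all tested genes). The cytokine IL32 was at 2.63 and 3.51 against 8.79 and 7.70 CPM (1.42 ± 0.28, edgeR adjusted p = 0.0286), and PLAU, the urokinase protease, at 41.3 and 41.9 against 15.8 and 16.9 CPM (−1.35 ± 0.17, 0.00307).

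The largest rises in the knock-in line were genes with little or no RNA in treated wild-type cells. SPARC, a secreted matrix glycoprotein (chr5:151661096-151687165), had 0 counts in both wild-type libraries and 10.5 and 8.98 CPM in the knock-in libraries. It was at least 82.1-fold higher, taking 3 counts per library as the floor (edgeR adjusted p = 0.000512). ANKRD1, a muscle ankyrin repeat protein and widely used YAP target (chr10:90912096-90921276), was at 0.267 and 0.0408 against 16.6 and 16.6 CPM (log2 6.68 ± 0.42, edgeR adjusted p = 6.29e-05). CAVIN2, a coat protein of caveolae, had 3 counts over both wild-type libraries and 4.65 and 5.71 CPM in the knock-in libraries, a ratio of 87.2 with a 95% counting interval of 29.5 to 425. These 3 genes were at or near 0 in wild-type and well above it in both knock-in libraries.

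The others in this group ranged from a few wild-type counts to levels above 1 CPM in both wild-type libraries. The cancer-testis antigen MAGEB1 was at 0.610 and 0.857 CPM in wild-type and 37.0 and 36.5 CPM in knock-in libraries (log2 5.64 ± 0.25, edgeR adjusted p = 1.65e-05). SLC2A3, the glucose transporter GLUT3, was at 3.24 and 2.61 against 84.6 and 73.7 CPM (4.75 ± 0.18, edgeR adjusted p = 5.66e-06). SUSD2, a membrane sushi-domain protein, was at 4.08 and 4.21 against 77.0 and 74.5 CPM, and PRF1, which encodes the pore-forming protein perforin, at 2.56 and 1.63 against 36.2 and 36.3 CPM. In each of these genes the knock-in libraries lay many-fold above the wild-type ones and close to each other. MUC13, a transmembrane mucin (0.114 and 0.408 against 8.94 and 8.10 CPM) and ANGPT2, an angiopoietin (0.725 and 0.735 against 12.6 and 10.9 CPM), had log2 differences of 5.01 and 4.001. FAM50B, GNA15, FLRT3, DCLK1 and ISPD had log2 differences from 3.44 to 6.15 and also belonged to the 15 largest rises, with edgeR adjusted p up to 0.0299. FAM50B had 2 and 4, GNA15 8 and 0, and FLRT3 13 and 1 counts in the treated wild-type libraries, so their fold differences are uncertain.

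Among the 15 largest falls, the 4 largest were in genes that wild-type cells expressed and knock-in cells nearly lacked. GALNT14, a transferase that starts mucin-type O-glycans (chr2:30910467-31155202), was at 18.9 and 18.4 CPM in wild-type and 0.0733 and 0.319 CPM in knock-in libraries (log2 −6.56 ± 0.42, edgeR adjusted p = 6.94e-05). PROM1, which encodes the stem cell surface protein CD133, was at 33.1 and 27.6 against 0.550 and 0.758 CPM (−5.53 ± 0.28, edgeR adjusted p = 2.08e-05). The kinase SYK was at 15.5 and 11.96 against 0.220 and 0.638 CPM, and PXDN, a matrix peroxidase, at 15.3 and 16.0 against 0.586 and 0.439 CPM. All 4 were below 1 CPM in both knock-in libraries.

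MECOM, NFIB and EHMT2 encode regulators of transcription. MECOM, a zinc finger transcription factor, was at 15.1 and 14.5 CPM in wild-type and 0.696 and 0.559 CPM in knock-in libraries (log2 −4.55 ± 0.23, edgeR adjusted p = 2.08e-05). NFIB, a nuclear factor I transcription factor, was at 14.5 and 13.3 against 0.733 and 0.918 CPM (−4.07 ± 0.33, edgeR adjusted p = 0.000262). EHMT2, a histone H3 lysine methyltransferase, was at 24.8 and 16.4 against 1.43 and 3.11 CPM (−3.18 ± 0.45, edgeR adjusted p = 0.0053). An ID without a name, ENSG00000227333, carried the same CPM (to 4 digits) as EHMT2 in every treated library, so the reads of EHMT2 could be split or shared and its level is uncertain. MAOB, a monoamine oxidase (42.0 and 36.1 against 6.37 and 6.26 CPM), and SCG2, a secretory granule protein (32.7 and 37.96 against 5.53 and 5.23 CPM), fell by 2.63 and 2.71 on the log2 scale. UBE2E2, CR2, EPHA4 and BTBD11 had log2 differences from −3.26 to −2.44, with edgeR adjusted p from 0.00184 to 0.0202.

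**Figure D3:**
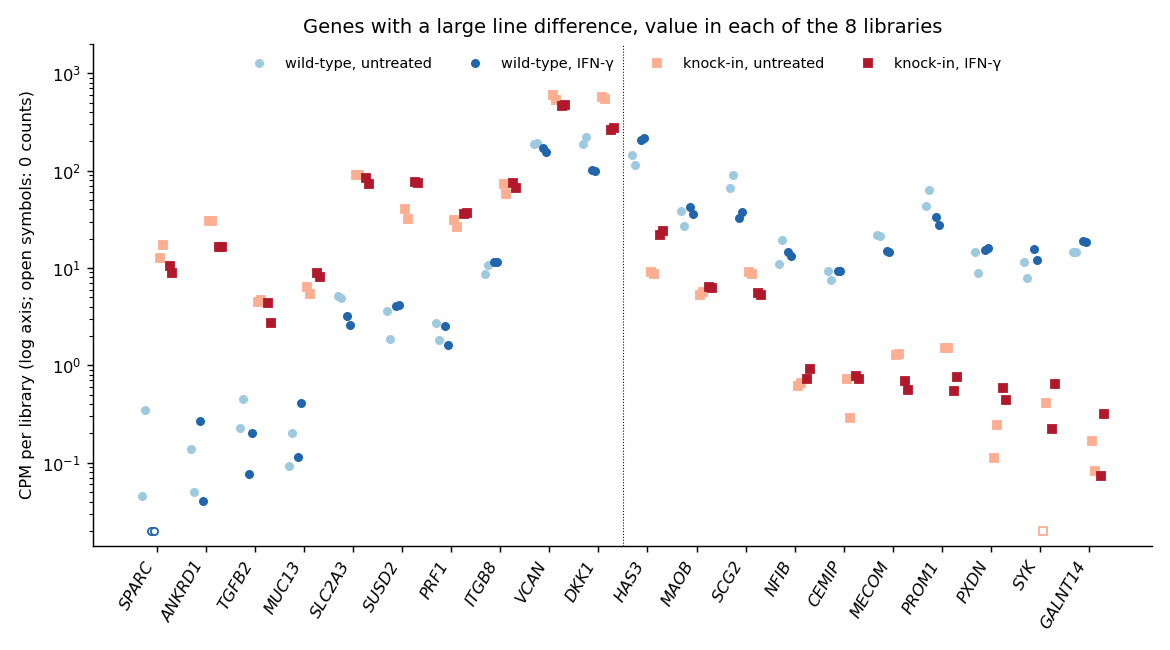
CPM per library (log axis) of 20 genes with large line differences, in all 8 libraries, wild-type as circles and knock-in as squares, pale without and dark with IFN-γ. Open symbols at the bottom stand for 0 counts. The genes left of the dotted line are higher and those right of it lower in knock-in cells, and within each treatment the libraries of the lines do not overlap.

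Extracellular matrix and integrin genes moved in both directions, with 6 of 42 higher and 3 lower (21.4% called, against 2.91% of all tested genes). Besides SPARC, the integrin subunit ITGB8, which helps to release active TGF-β, was at 11.6 and 11.51 CPM in wild-type and 74.3 and 66.9 CPM in knock-in libraries (log2 2.61 ± 0.18, edgeR adjusted p = 9.95e-05). The collagen COL13A1 (log2 2.01 ± 0.25), fibronectin FN1 (1.72 ± 0.23), the membrane protease MMP14 (1.59 ± 0.17) and the laminin LAMB1 (0.77 ± 0.13) were also higher, with edgeR adjusted p from 0.0015 to 0.0155. FN1 was at 4.62 and 5.88 against 17.99 and 16.6 CPM. The 3 that fell included LAMA3, a laminin chain of epithelial basement membranes, at 15.2 and 14.9 against 7.44 and 7.38 CPM (−1.02 ± 0.19, edgeR adjusted p = 0.0222), and the laminin LAMC1 at 134 and 142 against 86.9 and 86.6 CPM (−0.67 ± 0.14, 0.0344).

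Hyaluronan genes differed between paralogues. HAS3, a hyaluronan synthase (chr16:69105564-69118719), was at 206 and 218 CPM in wild-type and 21.7 and 23.8 CPM in knock-in libraries, a log2 difference of −3.22 ± 0.16 (edgeR adjusted p = 2.08e-05). HAS2, another synthase, had 2 counts over both wild-type libraries and 2.42 and 1.96 CPM in knock-in libraries, a ratio of 55.7 with a 95% counting interval of 15.1 to 465. The synthases thus differed in opposite directions. CEMIP, which takes part in hyaluronan breakdown, was at 9.35 and 9.23 against 0.769 and 0.718 CPM (−3.63 ± 0.39, edgeR adjusted p = 0.00122), while its paralogue CEMIP2 was higher, at 36.7 and 34.0 against 70.4 and 72.2 CPM (1.01 ± 0.13, 0.00307). VCAN, the hyaluronan-binding proteoglycan versican, was at 170.4 and 155 against 459 and 469 CPM (1.51 ± 0.12, edgeR adjusted p = 0.000262). In all, 3 of 11 tested members of this list rose and 2 fell (45.5% called, against 2.91% of all tested genes).

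TGF-β and BMP signalling genes had 7 of 31 members higher and none lower (22.6% called, against 2.91% of all tested genes). The list had a median log2 difference of 0.61, against −0.01 for all tested genes. At an unadjusted p under 0.05, 15 were higher and 2 lower. The fit of the treated libraries alone called 15 higher and none lower, and it called 7.63% of all genes higher and 7.6% lower. With 1 treated library left out, 3 or 4 were called, and 3 with ERCC scaling or glmTreat, which tests against a 1.5-fold difference. Among ligands, BMP4 was at 55.6 and 54.7 CPM in wild-type and 152 and 139.5 CPM in knock-in libraries (1.40 ± 0.13, edgeR adjusted p = 0.000695), and TGFB2 at 0.0763 and 0.204 against 4.40 and 2.71 CPM (4.63 ± 0.61, 0.00381). LTBP1, which stores latent TGF-β in the matrix (1.17 ± 0.19), and the receptor TGFBR2 (0.65 ± 0.12) were higher too. The inhibitory SMADs, which damp this signalling and are known as its targets, were both higher, SMAD6 at 5.19 and 5.84 against 26.7 and 28.1 CPM (2.31 ± 0.25, edgeR adjusted p = 0.00135) and SMAD7 at 2.40 and 4.08 against 14.4 and 11.2 CPM (1.98 ± 0.41, 0.0347). ID2, a BMP target that inhibits helix-loop-helix factors, was at 9.77 and 7.35 against 20.6 and 17.7 CPM (1.16 ± 0.19, edgeR adjusted p = 0.0113). The called members include ligands, a receptor, inhibitors and a target.

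YAP and TEAD targets had 6 of 24 members higher and 2 lower (33.3% called, against 2.91% of all tested genes), with a median of 0.35. Besides ANKRD1 and TGFB2 the higher ones were CRIM1, which binds BMPs (1.18 ± 0.18), tissue factor F3 (1.15 ± 0.12), thrombospondin THBS1 (1.04 ± 0.15) and the factor TEAD2 itself (0.72 ± 0.15), with edgeR adjusted p from 0.00134 to 0.0381. F3 was at 38.6 and 38.3 CPM in wild-type and 86.4 and 84.2 CPM in knock-in libraries. The ectonucleotidase NT5E, at 139 and 144 against 70.3 and 67.4 CPM (−1.04 ± 0.12, edgeR adjusted p = 0.00216), and the YAP-binding AMOTL1 (−0.69 ± 0.15, 0.0454) were lower. Among 23 Wnt and β-catenin targets 3 were higher and 1 lower (17.4% called), with a median of 0.05. DKK1, a secreted Wnt antagonist, was at 101 and 98.9 against 260.3 and 273 CPM (1.42 ± 0.13, edgeR adjusted p = 0.000474), and the other 2 were BMP4 and ID2. MMP7, a matrix protease, was at 0.687 and 0.694 CPM in wild-type and 0 in both knock-in libraries (edgeR adjusted p = 0.0284). It lies outside the naming rule for its low level.

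Epithelial markers had 2 of 31 members higher and 5 lower (22.6% called, against 2.91% of all tested genes). EPCAM, the epithelial adhesion molecule, was at 189 and 193 CPM in wild-type and 115 and 115 CPM in knock-in libraries (−0.73 ± 0.15, edgeR adjusted p = 0.0295). The tight junction protein occludin (OCLN, −0.74 ± 0.14), the desmosomal cadherin DSC2 (−0.77 ± 0.14), the epithelial transcription factor GRHL2 (−0.93 ± 0.20) and MAL2, which acts in apical transport (−1.33 ± 0.19), were lower with edgeR adjusted p from 0.00541 to 0.04. The keratins KRT80 (1.31 ± 0.27) and KRT23 (1.16 ± 0.26) were higher. The list thus did not move as 1 group, with a median of −0.10, and of the colorectal markers given above KRT8 and KRT18 were at higher and the sum of the other 12 at lower levels in both knock-in libraries. Of 14 mesenchymal markers 3 were higher and none lower (21.4% called). TAGLN, an actin-binding protein, was at 5.68 and 6.33 against 19.1 and 18.2 CPM (1.64 ± 0.21, edgeR adjusted p = 0.00327), and the lysyl oxidase LOXL2 at 16.4 and 14.4 against 36.2 and 39.8 CPM (1.30 ± 0.22, 0.0123).

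VIM, which encodes the intermediate filament vimentin, was at 4.46 and 3.23 CPM in wild-type and 18.3 and 38.2 CPM in knock-in libraries (2.87 ± 0.41, edgeR adjusted p = 0.00541). Its higher value was in knock-in library 2, which carried the immunoglobulin RNA, and without that library the difference was 2.25 (edgeR adjusted p = 0.0201). Without IFN-γ VIM averaged 27.5 CPM in wild-type and 31.2 CPM in knock-in cells, in groups where 3 of the 4 libraries carried that RNA. Over all called genes, 8 of the higher and 11 of the lower ones were at least 1.5 times as high in treated knock-in library 2 as in library 1, and 6 and 6 were at least 1.5 times as high in library 1.

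Of 14 tested intestinal identity genes, 2 were higher and none lower (14.3% called, against 2.91% of all tested genes). MUC13 is given above, and HNF4A, a transcription factor of gut epithelium, was at 7.78 and 7.18 CPM in wild-type and 25.1 and 22.9 CPM in knock-in libraries (1.68 ± 0.23, edgeR adjusted p = 0.00498). Glycosyltransferases that start or branch mucin-type O-glycans had 4 of 18 members lower and none higher (22.2% called), with a median of −0.35. After GALNT14 these were GALNT3 at 22.9 and 24.8 against 5.75 and 8.82 CPM (−1.71 ± 0.22, edgeR adjusted p = 0.0033), GALNT18 at 40.9 and 48.3 against 19.1 and 21.3 CPM (−1.14 ± 0.20, 0.0153) and the branching enzyme GCNT1 (−0.86 ± 0.18, 0.0374). At an unadjusted p under 0.05, 8 were lower and none higher.

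Of 31 cholesterol and fatty acid synthesis genes, 7 were called lower in the knock-in line and none higher, with a median of −0.51. That is 22.6% called, against 2.91% of all tested genes. At an unadjusted p under 0.05, 20 were lower and none higher, and the replicates of 29 did not overlap (57.6% of all tested genes). The fit of the treated libraries alone called 22 lower, where 7.6% of all genes were called lower. None was called with glmTreat, without treated wild-type library 2 or without either treated knock-in library, 2 were called without treated wild-type library 1, 3 with ERCC scaling and 14 by DESeq2. TM7SF2, a sterol reductase, was at 17.1 and 20.6 CPM in wild-type and 8.54 and 8.74 CPM in knock-in libraries (−1.12 ± 0.18, edgeR adjusted p = 0.00961). Mevalonate kinase (MVK) was at 32.7 and 26.5 against 12.6 and 15.04 CPM (−1.10 ± 0.21, edgeR adjusted p = 0.0234), and INSIG1, the sterol-sensing brake on SREBP, at 99.4 and 115 against 50.9 and 57.8 CPM (−0.98 ± 0.14, 0.00591). These genes were lower in both knock-in libraries. The elongase ELOVL6 (−0.98 ± 0.16), the stearoyl-CoA desaturase SCD (−0.57 ± 0.12) and the methyl sterol oxidase MSMO1 (−0.55 ± 0.12) had edgeR adjusted p from 0.0123 to 0.046.

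The integrated stress and unfolded protein response list had 5 of 30 members higher and none lower, with a median of 0.39. That is 16.7% called, against 2.91% of all tested genes. At an unadjusted p under 0.05, 13 were higher and 1 lower. The fit of the treated libraries alone called 16 higher and 1 lower, where 7.63% of all genes were called higher and 7.6% lower. With 1 treated library left out, 1 to 3 were called. CHAC1, which degrades glutathione, was at 2.86 and 3.35 CPM in wild-type and 11.1 and 14.5 CPM in knock-in libraries (2.05 ± 0.24, edgeR adjusted p = 0.00196). Of enzymes and transporters of amino acid supply that ATF4 is known to activate, PHGDH was at 82.3 and 82.3 against 196 and 196 CPM (1.25 ± 0.18, edgeR adjusted p = 0.00671). The cystine transporter SLC7A11 was at 53.5 and 47.8 against 122 and 112 CPM (1.21 ± 0.16, 0.00394 by edgeR) and asparagine synthetase (ASNS) at 57.1 and 56.8 against 106 and 105 CPM (0.89 ± 0.19, 0.039). XBP1, a factor of the unfolded protein response, was also higher (0.75 ± 0.14, edgeR adjusted p = 0.0239). All 5 stood above the wild-type range in both knock-in libraries. Of 35 glycolysis and hypoxia genes, SLC2A3 was higher and 3 were lower (11.4% called), with a median of −0.13. The lower ones were the carbonic anhydrase CA12 (−1.33 ± 0.28), the aldolase ALDOC (−0.98 ± 0.15) and the mitophagy receptor BNIP3 (−0.61 ± 0.14).

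Immediate early genes had 1 of 31 members higher and 3 lower (12.9% called, against 2.91% of all tested genes). FOS was at 179 and 175 CPM in wild-type and 82.1 and 84.8 CPM in knock-in libraries (−1.09 ± 0.14, edgeR adjusted p = 0.00388), and its paralogue FOSB at 37.8 and 32.0 against 13.3 and 12.7 CPM (−1.43 ± 0.21, 0.00615). PHLDA1 was lower (−0.73 ± 0.16). DUSP6, a phosphatase of ERK, went the other way, at 170.2 and 189.5 against 346 and 344 CPM (0.94 ± 0.13, edgeR adjusted p = 0.00514). In the ERBB list of 24 genes, the receptor EGFR was at 172 and 158 against 108 and 102 CPM (−0.65 ± 0.13, edgeR adjusted p = 0.036) and its feedback inhibitor ERRFI1 at 361 and 367 against 539 and 523 CPM (0.54 ± 0.12, 0.0494).

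MYC was at 404 and 400.2 CPM in wild-type and 260.3 and 264 CPM in knock-in libraries under IFN-γ. The groups did not overlap, but the difference did not pass the test (−0.62 ± 0.19, edgeR adjusted p = 0.144), while the fit of the treated libraries alone called it (−0.60, edgeR adjusted p = 0.000573). Of 34 MYC and ribosome biogenesis genes, edgeR and limma-voom called none and DESeq2 called 1, with 2 higher and 5 lower at an unadjusted p under 0.05. The fit of the treated libraries alone called 2 higher and 9 lower, where 15.2% of all genes were called, and edgeR with the GC and length trend removed called 4. Of 46 cytosolic ribosomal protein mRNAs edgeR and limma-voom called none and DESeq2 called 1. Their median was 0.18, with 6 higher and none lower at an unadjusted p under 0.05. The fit of the treated libraries alone called 19 higher, against the same 15.2% of all genes. Cell cycle and replication genes had 2 of 53 higher, the phosphatase CDC25C (0.79 ± 0.14) and the kinase CDK6 (0.72 ± 0.14), and 1 lower, the ribonucleotide reductase subunit RRM2 (−0.68 ± 0.14). That is 5.66% called, against 2.91% of all tested genes. PLK2 was the called p53 target of 30 tested (3.33%), at 70.9 and 76.5 against 165 and 163 CPM (1.15 ± 0.12, edgeR adjusted p = 0.00118).

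**Figure D4:**
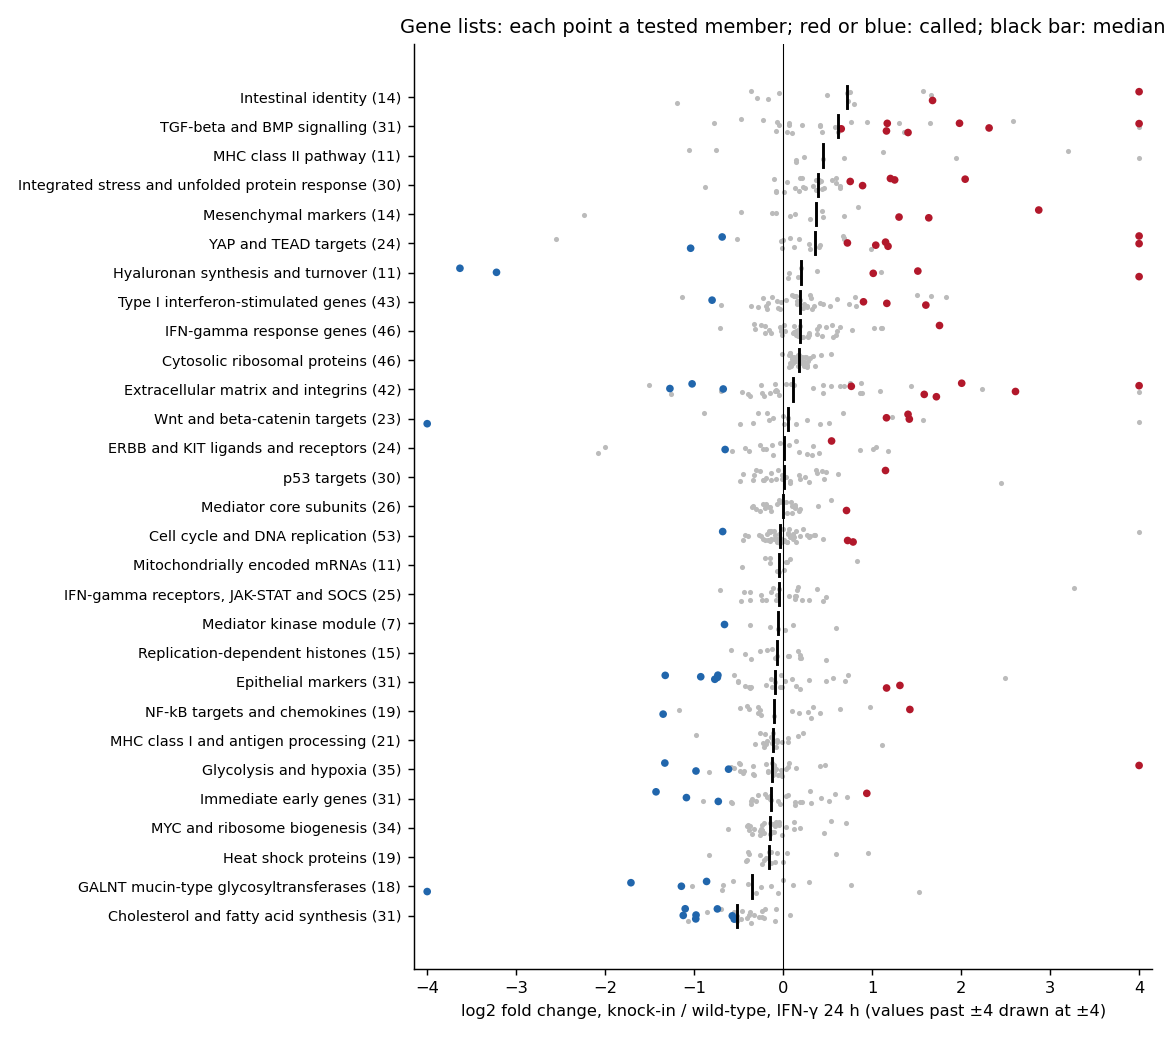
Log2 fold change of knock-in over wild-type cells under IFN-γ for the tested members (points) of 29 gene lists, number tested in brackets. Red or blue points were called higher or lower, black bars are list medians, and values beyond 4 in either direction are drawn at 4. TGF-β and BMP signalling has a median of 0.61 and cholesterol and fatty acid synthesis a median of −0.51, while the IFN-γ response list lies at 0.18.

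Set beside the untreated cells, most of the treated line difference was also there without IFN-γ. In the untreated comparison 1392 genes (8.43%) were called, and 377 of the 481 were among them, all in the same direction. That is 78.4% of the treated and 27.1% of the untreated calls. Of the 481, 473 had the same sign without treatment, 7 the opposite sign, and 1 had no counts there. The test of the difference between the treated and the untreated line difference called no gene by edgeR's quasi-likelihood test (smallest adjusted p = 0.311) and none by limma-voom, against 4 by DESeq2. At an unadjusted p under 0.05 it had 1117 genes (6.76%), 72 of them among the 481. In data simulated from the mean counts of these libraries, 100 genes were changed 2-fold and 100 4-fold in treated knock-in cells. No other line or IFN-γ effect was put in. There the test of the difference recovered 11.2% of 2-fold and 58.6% of 4-fold differences, and the treated comparison 45.9 and 71.7%. The real data hold many more differences, so these shares need not hold for them.

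Of the 7 genes with the opposite sign without treatment, the 5 with a standard symbol are given here, chosen after their values were seen. APOBEC3G, a cytidine deaminase that restricts retroviruses, was at 2.17 and 2.69 CPM in treated wild-type and 8.90 and 11.2 CPM in treated knock-in libraries (2.04 ± 0.45, edgeR adjusted p = 0.0476), against a log2 difference of −0.27 without IFN-γ. PBXIP1 (1.03 with and −0.09 without), FAM122C (0.89 and −0.26), the histone gene HIST2H2BF (−1.16 and 0.13) and MSMO1 (−0.55 and 0.03) were the others. For these 5 the unadjusted p of the difference between contrasts was 0.00153 to 0.00705 and the edgeR adjusted p 0.688, so that difference did not pass the test.

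**Figure D5:**
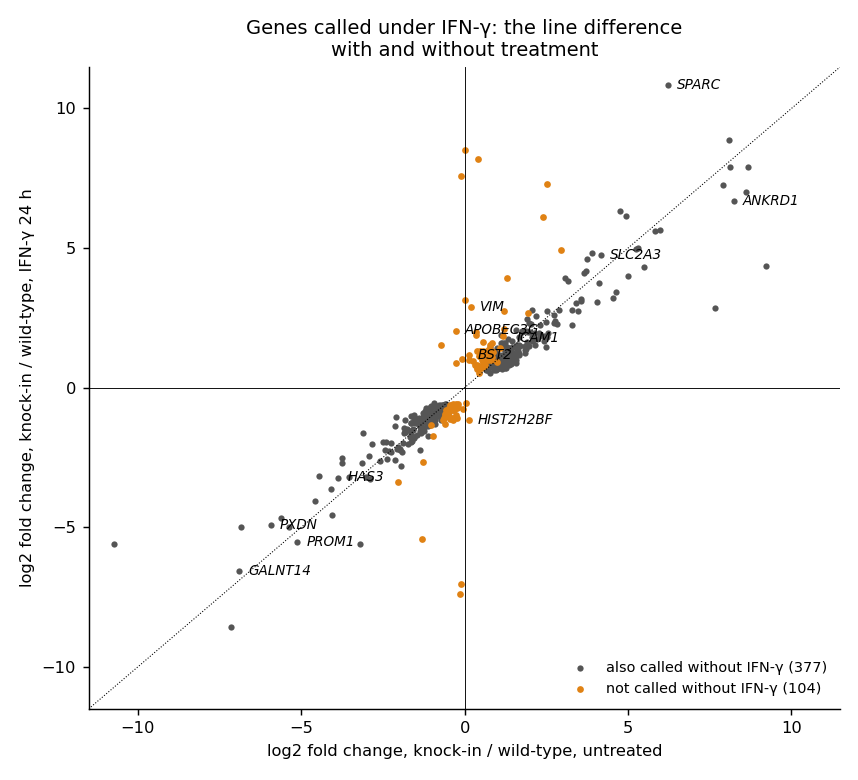
Log2 fold change of knock-in over wild-type cells with IFN-γ (vertical) against that without (horizontal) for the 481 genes called with IFN-γ. Grey points (377) were also called without treatment and orange points (104) were not, and the dotted diagonal marks equal differences. Most points lie near the diagonal, and VIM, APOBEC3G and BST2 are among the orange ones.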

How the data were processed

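For these rRNA-depleted total RNA libraries the submitters' processing notes name Trimmomatic, a read trimmer, kallisto, which estimates transcript abundance, and the build GRCh38. For tool versions, transcript annotation and spike-in amount nothing is stated in the labels. The authors deposited estimated counts per Ensembl gene ID, per the file headers, for 40295 IDs and 63 ERCC RNAs. Of the nonzero values 58.3% are not whole (tolerance 1e-06). All 8 columns were matched to libraries by label. GENCODE release 29 (GRCh38) named 35583 IDs, and the other 4712 stayed in the tests without a name. Among the 15137 IDs above 100 counts, 904 shared all their values with some other ID, which shows that near-identical genes can hold the same reads.

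Counts were rounded, ERCC rows dropped, genes kept by filterByExpr (minimum count 10, 16519 kept) and libraries scaled by TMM (1.099 to 1.134 in the treated libraries). In R 4.3.3, edgeR 4.0.16 fitted group as the only factor to all 8 libraries, and genes were called by its quasi-likelihood test at a Benjamini-Hochberg adjusted p under 0.05 (common dispersion 0.0415, a coefficient of variation of 20.4%). Log2 fold changes are knock-in over wild-type, and the SE is their size divided by the square root of F. The contrast of treated lines, that of untreated lines, their difference and the mean IFN-γ response were computed. With 2 libraries per group, precision rests on the spread shared across groups. Where a group had 0 counts, the floor was 3 counts per library, and where it had 1 to 3 counts, a ratio with a 95% exact counting interval is given, which covers counting error only. The fit was tested on simulated data, where 16170 genes were kept and 7 unchanged genes were called in the treated contrast.

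Named genes were, among called genes with a symbol, at least 5 CPM in a treated group and replicates that do not overlap, the 15 largest rises and falls. Added were up to 4 called members of each list at 1 CPM or more, and MED12, MED12L, MED13, MED13L, CDK8, CDK19, CCNC, IRF1, NLRC5, CIITA and MYC. A few genes taken by this rule are left out here. The further called members of the lists, MMP7, IFNGR1, JAK1, CD74, the genes of opposite sign and those in the closing observations were named after their values were seen. The gene lists and the choice of this comparison were made with earlier results of these data known, so lists are described by counts and medians, without a test. Promoters came from a RefSeq table (GRCh38.p14), matched by symbol.

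Alternatives were DESeq2's size factors, ERCC scaling, DESeq2 1.42.0, limma-voom (limma 3.58.1), no filter but a nonzero total, a filter of 50 counts in 2 libraries, the 4 treated libraries alone, the replicate number as a block, correction of every library for GC content and length (loess, span 0.3), glmTreat against 1.5-fold, and each library left out. Chosen after seeing the data were the treated libraries with a block and the removal of the libraries with immunoglobulin RNA. Y-linked genes are not described.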

Additional observations from a re-analysis of the deposited data

How the results depend on the processing

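The count of 481 genes was 463 with DESeq2's size factors, 617 with limma-voom and 533 with the stricter filter, but 195 (95 higher, 100 lower) with ERCC scaling, which shifted all genes by a median of -0.06 on the log2 scale. DESeq2 called 888 (475 higher), no filter 1227 (726 higher), the treated libraries alone 2427, the GC and length trend removed 1362 (693 higher) and glmTreat 160 (94 higher). With 1 library left out the count ran from 147 to 1111. It was 189 and 147 without treated wild-type library 1 and 2, 147 and 155 without treated knock-in library 1 and 2, 379 and 375 without untreated knock-in library 1 and 2, and 1015 and 1111 without untreated wild-type library 1 and 2. Without the immunoglobulin libraries it was 954, of which 422 were shared with the 481. The 0 calls for the difference between treated and untreated line differences became 4 with DESeq2 and 267 with no filter, and ran from 0 to 2 with 1 library left out (2 without untreated wild-type library 2, 2 without treated wild-type library 1).

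Same-numbered treated libraries of the lines did not deviate together (r = 0.033 over genes), while same-numbered untreated and treated knock-in libraries did (r = 0.27), the number 2 in both carrying the immunoglobulin RNA. The other 4 pairs of groups had r from -0.002 to 0.074, so the numbers were not taken as pairs. With the replicate block 523 genes were called (298 higher, 459 shared) and 0 for the difference of differences, and the treated libraries alone with a block gave 2699. Of the 84 named called genes none changed direction in any alternative, which the lack of overlap between their replicates largely fixed beforehand. Those no longer called numbered 37 with ERCC scaling, 34 with glmTreat and 32 to 42 when a treated library was left out, and the cause was not tested. When a treated library is left out, 1 library stands for its group and is assumed to vary like the others. At 22177166 to 24086889 counts per treated library, 0 counts do not show that a gene is silent.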

Other observations

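Some called genes with sizeable RNA levels belonged to no list and were named after their values were seen. Among genes that IFN-γ raised by 2-fold or more in the mean of both lines, TGM2, a protein-crosslinking transglutaminase, was at 7.86 and 7.47 CPM in treated wild-type and 43.4 and 41.7 CPM in treated knock-in libraries (log2 2.47 ± 0.24, edgeR adjusted p = 0.000789). The epithelial sodium channel subunit SCNN1A was at 69.5 and 63.9 against 27.4 and 26.2 CPM (-1.31 ± 0.14, edgeR adjusted p = 0.00122), and the neurotensin receptor NTSR1 at 125 and 104 against 53.7 and 45.6 CPM (-1.21 ± 0.25, 0.0347). SFN, the 14-3-3 sigma protein, was at 72.7 and 70.01 against 36.8 and 37.3 CPM (-0.95 ± 0.19, edgeR adjusted p = 0.0334). In each of these the groups did not overlap.

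Among genes that IFN-γ lowered by 2-fold or more, several were higher in the knock-in line. The annexin ANXA3 was at 164 and 177 CPM in treated wild-type and 363 and 379 CPM in treated knock-in libraries (1.125 ± 0.18, edgeR adjusted p = 0.00883), the galectin LGALS1 at 79.8 and 100 against 181 and 196 CPM (1.07 ± 0.16, 0.00643) and the splicing regulator MBNL2 at 80.2 and 80.05 against 193 and 174 CPM (1.20 ± 0.17, 0.00615). Others were lower. The adhesion G protein-coupled receptor ADGRF1 was at 144 and 143 against 33.6 and 36.9 CPM (-2.02 ± 0.16, edgeR adjusted p = 0.000195), and the caveola protein CAV1 at 126 and 132 against 46.0 and 45.96 CPM (-1.49 ± 0.18, 0.0022). All 9 genes named in these paragraphs had a line difference of the same sign without IFN-γ, with edgeR adjusted p from 0.000317 to 0.00931.

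By chromosome, only the autosomes and X were described, for genes at a mean of 5 CPM or more. The median log2 difference lay between -0.08 (chromosome 18) and 0.03 (chromosome 19). The share called lay between 0.943% (1 of 106 genes on chromosome 21) and 8.92% (14 of 157 on chromosome 18). In windows of 100 neighbouring genes the median lay between -0.14 and 0.10.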
